A study of Mus musculus with 8 samples.

Results

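Eosinophils are white blood cells that carry cationic proteins in their granules and enter the airways in allergic inflammation. Epx (eosinophil peroxidase), Prg2 (major basic protein), Prg3 (its homologue), and the ribonucleases Ear1 and Ear2 are granule genes. Il5ra encodes the alpha chain of the receptor for IL-5, the main growth and survival factor of the lineage, and Ccr3 encodes the receptor for the eotaxins, which draw the cells into tissue. Siglecf and Cd300lf encode surface proteins with inhibitory signaling motifs. Not all of these transcripts belong to eosinophils alone, since alveolar macrophages also carry Siglec-F and make Ear transcripts, and Cd300lf is made by several kinds of myeloid cells. The 9 genes were taken as a given list, chosen with earlier results of these data known, and were matched to array probes by RefSeq accession. They had 13 probes among 56605 probes on the array, and the 9 genes stood among 45616 genes or unnamed transcripts. All 9 passed the filter on dim signals, which kept 28992 genes or transcripts.

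The study asked whether long feeding with a particle-borne immunostimulant changes an allergic lung response in mice. Lung RNA came from 8 female BALB/c mice, 2 per group, bought at 4 weeks of age and housed for 2 weeks before 70 days of feeding. NT mice received standard feed and no ovalbumin (OVA). Ctrl-F mice received standard feed, Cap-F mice received feed with control carbonate apatite particles that carried no oligodeoxynucleotide, and ODNcap-F mice received feed with the same kind of particles carrying a CpG oligodeoxynucleotide. The mice of these 3 groups were all sensitized with intraperitoneal OVA in alum on Days 42, 49, and 56, inhaled OVA aerosol from Day 63 to Day 69, and were killed 24 h after the last inhalation, on Day 70. The Ctrl-F and Cap-F groups are therefore the allergic controls. NT differs from Ctrl-F by sensitization and challenge together. From Cap-F and ODNcap-F it differs by the feed as well, so OVA and feed cannot be told apart in those 2 comparisons with NT. RNA was isolated from the lungs without sorting of cells, so that each value is an average over the cells in the sample. Fewer cells of a type and less RNA per cell cannot be told apart. The study also collected bronchoalveolar lavage fluid from mice whose lungs were taken. Whether the lungs used here were lavaged first is not stated, and cells removed with such fluid would be missing from these values. The lung markers Sftpc, of alveolar type 2 cells, and Scgb1a1, of club cells, were well above background on all 8 arrays.

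Levels below are log2 fluorescence intensities of a gene's probe after quantile normalization over the 8 arrays. They compare mice for 1 gene and do not rank the genes against each other. A spot was detected where the scanner software flagged it as well above background. Over single arrays 61.3% to 65.0% of the probes were detected, the lowest detected log2 value was 3.61 to 4.18, and no spot was saturated. The correlation over probes between both mice of a group was 0.994 to 0.996. Groups were compared in 1 limma fit over all kept probes, and a gene passed the test at a Benjamini-Hochberg adjusted p under 0.05 over all kept probes with a fold change over 2. With 2 mice against 2, an exact permutation test of a single gene cannot give a two-sided p below 0.333, so the calls rest on the variance that limma shares across probes. On the slide, NT shared 1 row with Ctrl-F, and Cap-F shared the other with ODNcap-F, so slide row and group cannot be told apart in comparisons across rows.

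The upstream sequences of the members were compared because the list holds duplicated genes. A promoter sequence in the RefSeq table used here matched 8 of the 9 members, and Prg2 had none. Of the pairs among these 8, Ear1 and Ear2 were near copies over the 250 bases before the start that the table gives, with 246 of 248 overlapping bases identical (99.2%) at a shift of 2 bases. The other 27 pairs reached 30.3% to 33.8% identity at their best shift of at most 50 bases. The Ear pair is printed because both genes were followed separately below. Positions are on GRCm38.p6, Ear1 on the minus strand at chr14:43819640-43819889 and Ear2 on the plus strand at chr14:44102404-44102653, each written 5′ to 3′ along its gene, and capitals mark the bases at which they differ.
Ear1: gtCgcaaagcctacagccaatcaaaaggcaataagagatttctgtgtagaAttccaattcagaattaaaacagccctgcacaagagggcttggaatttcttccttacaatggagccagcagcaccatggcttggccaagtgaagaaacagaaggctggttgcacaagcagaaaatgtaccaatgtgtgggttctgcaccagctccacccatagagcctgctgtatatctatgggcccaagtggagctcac
Ear2: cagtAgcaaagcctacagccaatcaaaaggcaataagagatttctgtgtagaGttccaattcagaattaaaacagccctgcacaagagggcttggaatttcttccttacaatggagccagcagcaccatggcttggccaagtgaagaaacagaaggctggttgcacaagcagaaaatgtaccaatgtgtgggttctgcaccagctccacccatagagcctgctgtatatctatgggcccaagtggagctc

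Eosinophil development depends on the GATA family of transcription factors, and on C/EBP and PU.1 proteins. The same 250 bases were searched on both strands for GATA words (AGATAA or TGATAA or AGATAG or TGATAG), for the PU.1 word GAGGAA, and for the C/EBP word TTNCNNAA. These words do not contain one another, although matches may overlap. GATA words were found in 3 of 8 members, against 26.5% of all 32851 promoters of the table. PU.1 words were also found in 3 of 8 members, against 23.3% of all promoters, and C/EBP words in 6 of 8, against 36.8%. Ear1 and Ear2, whose windows are near copies, carry the same C/EBP match, TTGCACAA, and each was counted among the 6. A match is a run of letters and not a shown binding site. The GATA-bearing promoters are printed because Gata1 itself is among the genes measured below, with the GATA words in capitals. Prg3 lies on the plus strand at chr2:84987965-84988214, Il5ra on the minus strand at chr6:106749038-106749287, and Ccr3 on the plus strand at chr9:124021721-124021970. The start in the table lies inside the annotated gene by 4146 bases for Ccr3, 1380 bases for Cd300lf, and 19 bases for Prg3, so it is not the outermost start of these genes, and sequence before an earlier start was not searched. In Ccr3 one word ends 25 bases before the start, and the single word of Il5ra spans bases 74 to 69 before it.
Prg3: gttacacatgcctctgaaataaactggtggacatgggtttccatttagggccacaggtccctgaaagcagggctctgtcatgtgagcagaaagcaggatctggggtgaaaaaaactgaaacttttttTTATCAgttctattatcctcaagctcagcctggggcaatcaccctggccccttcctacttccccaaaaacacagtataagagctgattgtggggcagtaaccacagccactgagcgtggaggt
Il5ra: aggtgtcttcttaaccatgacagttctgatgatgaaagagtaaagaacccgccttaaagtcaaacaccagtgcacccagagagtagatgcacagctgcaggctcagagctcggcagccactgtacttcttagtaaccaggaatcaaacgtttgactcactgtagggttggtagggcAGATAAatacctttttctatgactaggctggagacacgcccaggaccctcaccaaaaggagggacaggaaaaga
Ccr3: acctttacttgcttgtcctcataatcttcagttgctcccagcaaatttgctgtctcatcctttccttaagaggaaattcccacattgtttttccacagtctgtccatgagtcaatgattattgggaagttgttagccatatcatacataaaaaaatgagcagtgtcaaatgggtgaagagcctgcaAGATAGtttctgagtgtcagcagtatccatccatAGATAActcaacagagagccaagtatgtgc

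Most of the list was higher in the lungs of mice sensitized and challenged with OVA. Of the 9 genes, 7 were higher than in NT with each feed and none was lower, by the test. Epx, Prg2, Prg3, Ear2, Il5ra, and Ccr3 passed it in all 3 OVA-treated groups. Ear1 passed in Ctrl-F and ODNcap-F, and Siglecf in Cap-F alone. Cd300lf passed in none of the 3, although its dimmer probe did in all of them. Over all genes tested, 10.5% were called higher in Ctrl-F against NT, 9.74% in Cap-F, and 9.86% in ODNcap-F, and 22.8%, 19.6%, and 20.7% were called in either direction. The median log2 difference from NT over the 9 genes was 1.65 for Ctrl-F, 1.52 for Cap-F, and 1.91 for ODNcap-F, beside medians of −0.12, −0.11, and −0.12 over all genes. These comparisons share the same NT mice and are not independent of each other.

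**Figure D1:**
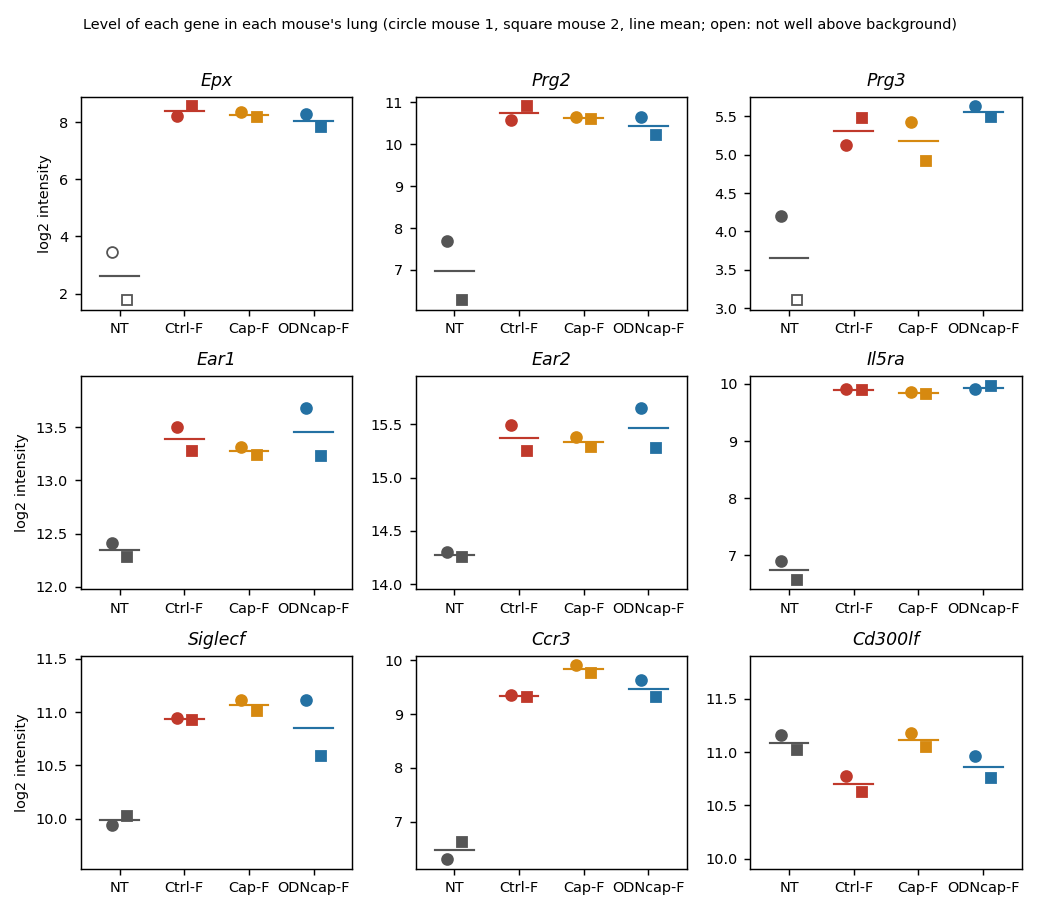
Log2 intensity of the standing probe of each gene (vertical axes, each panel with its own scale spanning at least 2 units) by group. Circles are mouse 1, squares mouse 2, lines the mean of both, and open symbols spots not well above background. In 8 panels every OVA-treated mouse lies above both NT mice, and Cd300lf is the exception.

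Among the granule genes, the largest difference was that of Epx, the peroxidase that forms hypobromous acid. Its probe read 3.46 and 1.77 in the NT mice, neither well above background. It read 8.22 and 8.55 for Ctrl-F, 8.34 and 8.17 for Cap-F, and 8.28 and 7.82 for ODNcap-F, detected in all 6 mice. NT thus gave a bound rather than a level, and Epx was at least 27.2-fold higher in Ctrl-F, at least 24.8-fold higher in Cap-F, and at least 21.4-fold higher in ODNcap-F. The bound sets the mean of the bright group against the lowest signal that was well above background on each NT array. In the same order, the adjusted p from limma was 0.000296, 0.000382, and 0.000412. These p-values belong to log2 differences of 5.77, 5.64, and 5.43, which use NT signals not well above background, and not to the bounds. Epx also passed the filter on dim signals only through the OVA-treated groups. These bounds depend on the background correction: with normexp, which lifts dim signals, the log2 differences were 2.50, 2.40, and 2.19, below the bounds, and still passed.

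Prg2, whose product forms the crystalline core of the granule, was detected in every mouse. Its level was 7.68 and 6.28 for NT, 10.59 and 10.91 for Ctrl-F, 10.64 and 10.62 for Cap-F, and 10.64 and 10.22 for ODNcap-F. The NT mice lay further apart than any OVA-treated pair, and still below all 6 OVA-treated mice. The log2 difference from NT was 3.77 for Ctrl-F, 3.65 for Cap-F, and 3.45 for ODNcap-F, each with an SE of 0.44, or 13.6-fold, 12.5-fold, and 10.9-fold. The adjusted p was 0.000746, 0.00098, and 0.00113. Without NT mouse 2 the Ctrl-F difference was at its lowest, 3.06, and it still passed.

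The signal of Prg3, a granule protein homologous to major basic protein, lay close to the detection limit. Its standing probe read 4.20 and 3.11 for NT, where mouse 2 was not well above background, 5.13 and 5.48 for Ctrl-F, 5.43 and 4.91 for Cap-F, and 5.63 and 5.49 for ODNcap-F. The log2 differences from NT were 1.65, 1.52, and 1.91 with an SE of 0.37, and the adjusted p was 0.0101, 0.0152, and 0.00608. The Ctrl-F call was lost without Ctrl-F mouse 2 (adjusted p of 0.0533), and the Cap-F call without Cap-F mouse 1 (adjusted p of 0.0769) or without NT mouse 2, when the difference fell below 2-fold (log2 0.97). With normexp background correction the log2 differences shrank to 0.39, 0.36, and 0.56, under the 2-fold limit in all 3 groups.

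The ribonucleases Ear1 and Ear2 were detected in every mouse and differed from NT by about 2-fold. Ear1 read 12.41 and 12.28 for NT, 13.50 and 13.28 for Ctrl-F, 13.32 and 13.24 for Cap-F, and 13.68 and 13.23 for ODNcap-F. The difference was 1.04 for Ctrl-F and 1.11 for ODNcap-F (SE 0.16, adjusted p of 0.00233 and 0.00196), whereas that in Cap-F, 0.93, stayed under 2-fold with an adjusted p of 0.00415. Ear2 read 14.30 and 14.25 for NT, 15.49 and 15.25 for Ctrl-F, 15.38 and 15.29 for Cap-F, and 15.65 and 15.28 for ODNcap-F. Its differences of 1.10, 1.06, and 1.19 (SE 0.14, adjusted p of 0.00121, 0.00161, and 0.000968) passed in all 3 groups. All OVA-treated mice lay above both NT mice for each of these genes. Because both sit close to the 2-fold limit, single mice decided calls: without Ctrl-F mouse 1 neither passed in Ctrl-F (0.93 for Ear1 and 0.97 for Ear2), without ODNcap-F mouse 1 neither passed in ODNcap-F (0.89 for Ear1, and just under 2-fold for Ear2), and without NT mouse 2 Ear1 did not pass in Ctrl-F (0.98). The upstream sequences of Ear1 and Ear2 are near copies, and their transcripts were not compared. How far each probe also binds the transcript of the other gene was not tested.

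Both receptor genes passed in all 3 groups. Il5ra read 6.91 and 6.58 for NT, 9.91 and 9.89 for Ctrl-F, 9.87 and 9.82 for Cap-F, and 9.90 and 9.97 for ODNcap-F, so that the OVA-treated mice all lay between 9.82 and 9.97. Its log2 difference from NT was 3.16 for Ctrl-F, 3.10 for Cap-F, and 3.19 for ODNcap-F (SE 0.12), which is 8.93-fold, 8.57-fold, and 9.15-fold, with adjusted p-values of 1.63e-05, 1.95e-05, and 1.68e-05. Ccr3 read 6.30 and 6.63 for NT, 9.36 and 9.32 for Ctrl-F, 9.91 and 9.77 for Cap-F, and 9.64 and 9.32 for ODNcap-F. Its differences were 2.87, 3.37, and 3.01 (SE 0.15), or 7.34-fold, 10.4-fold, and 8.07-fold, with adjusted p-values of 4.99e-05, 3.58e-05, and 4.86e-05. Both receptor genes kept their call in each comparison with NT when any single mouse was left out.

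Siglecf, which marks eosinophils and, more strongly, alveolar macrophages, lay near the 2-fold limit in all 3 groups. Its standing probe read 9.94 and 10.03 for NT, 10.94 and 10.92 for Ctrl-F, 11.12 and 11.01 for Cap-F, and 11.12 and 10.59 for ODNcap-F. The difference of 1.08 for Cap-F passed (SE 0.17, adjusted p of 0.00266). Those of 0.95 for Ctrl-F and 0.87 for ODNcap-F were under 2-fold, with adjusted p-values of 0.00391 and 0.00582. Without ODNcap-F mouse 2, the lowest of the OVA-treated mice, the ODNcap-F difference was 1.13 and passed.

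Cd300lf, an inhibitory receptor of myeloid cells, was the single member whose brighter probe did not follow the rest. It read 11.16 and 11.02 for NT, 10.77 and 10.63 for Ctrl-F, 11.18 and 11.05 for Cap-F, and 10.96 and 10.75 for ODNcap-F. Both Ctrl-F and both ODNcap-F mice lay below both NT mice, while Cap-F overlapped NT. The differences were −0.39 for Ctrl-F (adjusted p of 0.024), 0.03 for Cap-F (adjusted p of 0.834), and −0.23 for ODNcap-F (adjusted p of 0.121), all under 2-fold.

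**Figure D2:**
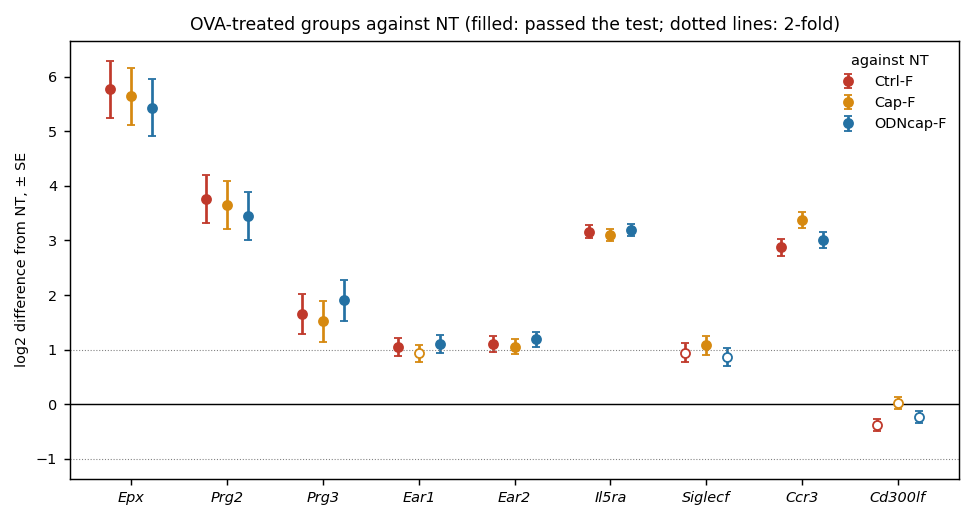
Log2 difference from NT (vertical axis) of the 9 genes (horizontal axis), with 1 color for each OVA-treated group and the SE from the limma fit. Filled points passed the test and dotted lines mark a 2-fold difference; Epx, Prg2, Il5ra, and Ccr3 stand highest, Ear1, Ear2, and Siglecf lie near the 2-fold line, and Cd300lf lies near 0.

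The mice were also compared one by one. In 8 of the 9 genes every Ctrl-F mouse lay above every NT mouse, and in 1, Cd300lf, every Ctrl-F mouse lay below. Over all genes these shares were 35.5% above and 48.5% below. For Cap-F, 8 genes lay above, none below, and 1 overlapped, against 34.3% and 47.8% of all genes. For ODNcap-F, 8 lay above and 1 below, against 34.2% and 48.1%.

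Prg3, Il5ra, Siglecf, and Cd300lf each had a second, dimmer probe that was read beside the first. For Siglecf and Il5ra the direction against NT was the same. The second Siglecf probe read 7.99 and 8.18 for NT, 9.20 and 9.22 for Ctrl-F, 9.28 and 9.18 for Cap-F, and 9.25 and 8.97 for ODNcap-F. It passed in all 3 groups, with differences of 1.13, 1.15, and 1.03 (adjusted p of 0.000481, 0.00053, and 0.000741). The second Il5ra probe read 4.37 and 3.49 for NT, 7.89 and 7.82 for Ctrl-F, 7.98 and 7.94 for Cap-F, and 7.78 and 7.81 for ODNcap-F. NT mouse 2 was not well above background on it. The differences of 3.92, 4.03, and 3.87 also passed, with adjusted p-values of 0.000107, 0.000118, and 0.00013.

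For Cd300lf the 2 probes disagreed in sign. The dimmer probe read 5.69 and 5.27 for NT, 7.40 and 7.27 for Ctrl-F, 7.66 and 7.35 for Cap-F, and 7.66 and 6.86 for ODNcap-F. All 6 OVA-treated mice lay above both NT mice, and the differences of 1.85, 2.02, and 1.78 (SE 0.29) passed with adjusted p-values of 0.00229, 0.00183, and 0.00284. Against a brighter probe that read lower in Ctrl-F and ODNcap-F, no single direction can be given for this gene. Probe sequences were not used here, and which transcripts each probe binds was not tested.

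For Prg3 the second probe was detected in Ctrl-F alone. It read 1.94 and 2.78 for NT, 4.93 and 4.94 for Ctrl-F, 4.02 and 3.45 for Cap-F, and 3.90 and 3.77 for ODNcap-F. Both Ctrl-F spots were well above background and none of the other 6 was. Its Ctrl-F level lay at least 2.47-fold above NT, and values of the other groups have no order below the detection limit. The limma adjusted p of 0.00076 uses NT signals not well above background, and the probe passed the filter through Ctrl-F alone.

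**Figure D3:**
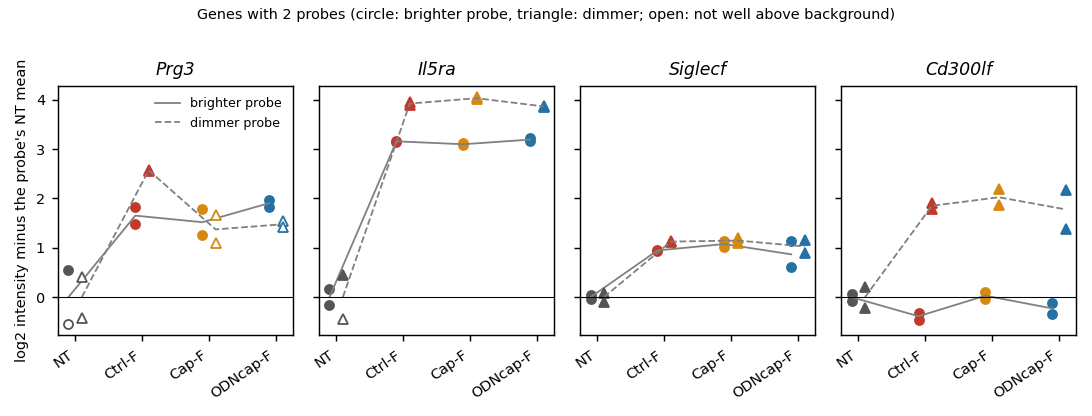
Log2 intensity minus the mean of the NT mice on the same probe (vertical axis) for the 4 genes with a pair of probes, by group. Circles and solid lines are the brighter probe, triangles and dashed lines the dimmer one, lines join group means, and open symbols are spots not well above background; for Cd300lf the dimmer probe rises by 1.78 to 2.02 while the brighter stays between −0.39 and 0.03.

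The next question was whether the feed changed these genes among OVA-treated mice. None of the 9 genes passed the test when ODNcap-F was set against Ctrl-F, against Cap-F, or against the mean of both allergic controls, or when Cap-F was set against Ctrl-F. In this order, limma called 0, 1, 2, and 1 of all 28992 genes (0%, 0.00345%, 0.0069%, and 0.00345%). At an unadjusted p under 0.05 with any fold change, the numbers of members by their standing probes were 0, 0, 0, and 2, against 6.78%, 13.4%, 7.63%, and 16.6% of all genes. With a 2-fold change as well, no member was left by its standing probe in any of the 4 comparisons (0.655%, 0.642%, 0.383%, and 0.98% of all genes). The local-pooled-error test, which called 0.459%, 0.362%, 0.297%, and 0.486% of all genes, called none. Over the 9 genes the median ODNcap-F difference was 0.06 from Ctrl-F and −0.20 from Cap-F, beside −0.01 over all genes in both cases.

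The width of the limma interval differed among the genes. For ODNcap-F against Ctrl-F, the difference in Il5ra was 0.04 with a 95% interval from −0.25 to 0.32, and that in Ear2 was 0.09 with an interval from −0.27 to 0.44. Ear1 differed by 0.06 (−0.33 to 0.46), Siglecf by −0.08 (−0.49 to 0.33), Ccr3 by 0.14 (−0.23 to 0.51), and the brighter Cd300lf probe by 0.16 (−0.11 to 0.43). For these 6 genes the interval lay within a 2-fold change in either direction. It did not for the other 3, which were Epx at −0.34 (−1.62 to 0.94), Prg2 at −0.32 (−1.39 to 0.76), and Prg3 at 0.25 (−0.66 to 1.16). A 2-fold lower level of Epx or Prg2 with ODNcap-F was therefore within the limma interval. The error in this fit is pooled over all groups, NT included. The NT mice differed by 1.69 for Epx, 1.40 for Prg2, and 1.09 for Prg3. The widest gap within an OVA-treated group was 0.46 for Epx and 0.42 for Prg2, both in ODNcap-F, and 0.52 for Prg3, in Cap-F. The intervals of these 3 genes thus include the NT spread, and do not give the precision among OVA-treated mice alone. These intervals are for single genes and carry no adjustment. The same split into 6 and 3 genes held when ODNcap-F or Ctrl-F was compared with Cap-F.

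Against Cap-F, the ODNcap-F levels of Epx and Prg2 differed by −0.21 (−1.49 to 1.07) and −0.20 (−1.27 to 0.88), and the mice overlapped. Ccr3 was the gene with the smallest p among the members, with both ODNcap-F mice below both Cap-F mice. Its difference was −0.36 (−0.73 to 0.01) with an adjusted p of 0.392. Cd300lf was likewise lower by its brighter probe in both ODNcap-F mice, at −0.26 (−0.53 to 0.01, adjusted p of 0.398), and its dimmer probe gave −0.25 (−0.95 to 0.46).

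Between the allergic controls, the same pair of genes read higher with the empty particles. With Cap-F, Ccr3 stood 0.50 above Ctrl-F (0.13 to 0.87, unadjusted p of 0.0165 and adjusted p of 0.222). The brighter Cd300lf probe was 0.42 higher (0.15 to 0.69, unadjusted p of 0.00928 and adjusted p of 0.194), and the dimmer probe 0.17 higher (−0.53 to 0.87). In both genes each Cap-F mouse lay above each Ctrl-F mouse, but neither difference passed. Arrays of Ctrl-F and Cap-F lay in different slide rows.

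Counted by separation of the mice, 1 gene (Prg3) of ODNcap-F lay above Ctrl-F and none below, against 17% and 18.6% of all genes. Between ODNcap-F and Cap-F 2 genes (Prg3 and Il5ra) lay higher and 2 (Ccr3 and Cd300lf) lower, against 21% and 24.7% of all genes. Between Cap-F and Ctrl-F 3 genes (Siglecf, Ccr3, and Cd300lf) lay higher and 1 (Il5ra) lower, against 25.9% and 25.8%. In ODNcap-F against both controls together, Prg3 lay higher and no gene lower, against 5.33% and 6.77%.

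Prg3 again depended on the probe. While its brighter probe read 0.25 above Ctrl-F with ODNcap-F feed, the dimmer probe was detected in both Ctrl-F mice and in no Cap-F or ODNcap-F mouse. On that probe Ctrl-F was at least 1.75-fold higher than ODNcap-F (unadjusted p of 0.0111 and adjusted p of 0.708). It was at least 1.84-fold higher than Cap-F (unadjusted p of 0.00738 and adjusted p of 0.184). Neither difference passed, and these limma p-values use signals that were not well above background.

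**Figure D4:**
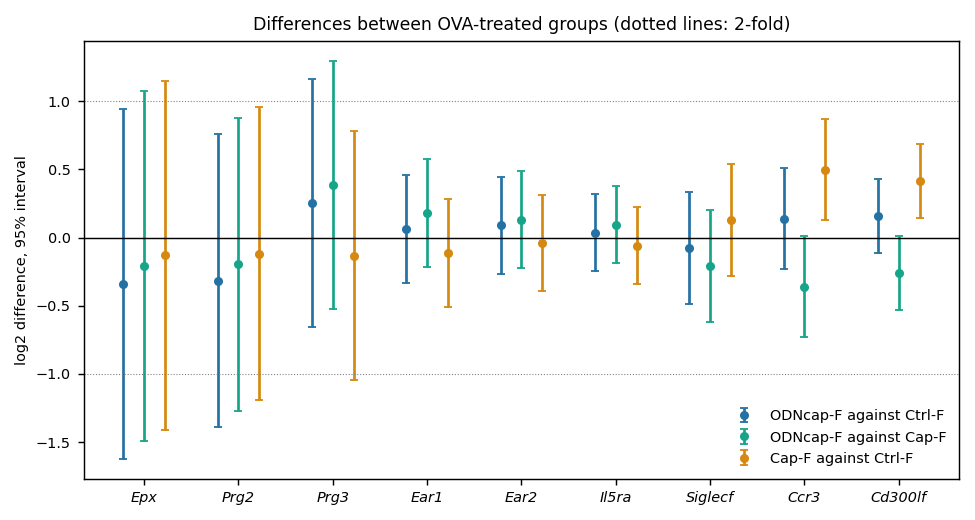
Log2 difference with its 95% interval from limma (vertical axis) for the 9 genes (horizontal axis), with 1 color for each pair of OVA-treated groups. Dotted lines mark a 2-fold difference; the intervals of Epx, Prg2, and Prg3 cross a dotted line, those of the other 6 genes do not, and Ccr3 and Cd300lf in Cap-F against Ctrl-F have intervals above 0.

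The spread within groups was uneven among the genes. The NT mice, on which each comparison with NT rests, differed by a median of 0.32 over the 9 genes beside 0.11 over all probes, with 7 genes higher in mouse 1. Their gap was 1.40 for Prg2. It was 1.09 for Prg3, which was not well above background in mouse 2, and 1.69 for Epx, which was detected in neither mouse. In ODNcap-F, mouse 1 read higher than mouse 2 for 8 of the 9 genes, by a median absolute difference of 0.37 beside 0.14 over all probes, and Il5ra was the exception at −0.06. Siglecf showed the widest gap in ODNcap-F, 0.52, followed by Epx at 0.46 and Ear1 at 0.45. In Cap-F all 9 genes read higher in mouse 1, with a median difference of 0.11 beside 0.11 over all probes. In Ctrl-F the median was 0.22 beside 0.12, with 6 genes higher in mouse 1. Among the 6 OVA-treated mice, ODNcap-F mouse 2 had the lowest level of 5 genes, while ODNcap-F mouse 1 and Cap-F mouse 1 had the highest level of 3 genes each. ODNcap-F mouse 2 was not low for the whole list, since it was the highest of the 6 for Il5ra and ranked 2 of 6 for Prg3.

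Some members moved together from mouse to mouse. With each gene set to its mean over the 6 OVA-treated mice, Ear1 and Ear2 differed by a root mean square of 0.04 log2 units, Epx and Prg2 by 0.04, and Ccr3 and the brighter Cd300lf probe by 0.06. Other pairs differed by more, such as Epx and Ccr3 by 0.29. With levels set to the NT mean over all 8 arrays, the closest pair was Ear1 and Ear2, at 0.08, followed by Ear1 and Siglecf, at 0.17. The points of such a comparison share the arrays and their normalization, and no test was made.

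Genes outside the list were ranked for likeness of their profile, as the root mean square difference of log2 change from the NT mean over the 8 arrays, among 16565 named genes. Closest to Il5ra were Slamf7 at 0.06, Slc16a6 at 0.08, and Plk1 at 0.10. Closest to Siglecf were Gm9733, Itgae, and Parp1, all at 0.07. No such ranking is given for Epx, whose NT values were not well above background. Nor is one given for Prg2, which was detected in both NT mice but at levels 1.40 apart.

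Other genes of the eosinophil program were followed in lists. Of the other Ear ribonucleases, 3 of 3 tested were called higher in Ctrl-F than in NT, Rnase2a by 3.58, Ear10 by 2.43, and Ear6 by 1.11. In Cap-F and ODNcap-F 2 of 3 passed, and Ear6 did not. Neither Mpo nor Lpo, the peroxidases most related to Epx, passed in any comparison with NT, at 0.39 and 0.41 for Ctrl-F.

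Ligands and receptor chains of the IL-5, IL-3, and GM-CSF system share the signaling chain encoded by Csf2rb with Il5ra. Of 7 tested, 4 were called higher in each OVA-treated group and none lower, with a median of 1.71 for Ctrl-F. Il5, the ligand of the Il5ra product, was at least 7.35-fold higher in Ctrl-F, since NT was not above background. Csf2rb2, Csf2rb, and Csf2ra were higher by 1.97, 1.96, and 1.71. Between ODNcap-F and Ctrl-F, Il5 differed by −0.40 with an adjusted p of 0.8.

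Of 4 chemokines that attract eosinophils, 3 were called higher in all 3 groups. In Ctrl-F the eotaxin genes Ccl24 and Ccl11, whose products bind the Ccr3 product, were higher by 6.85 and 6.17, and Ccl7 by 4.28, while Ccl5 differed by −0.59. The median of the 4 was 5.22. Over the 3 comparisons among OVA-treated groups the differences in Ccl24 and Ccl11 ran from −0.29 to 0.23 and none passed.

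Of 9 transcription factors of the lineage, Cebpe, which drives late granulocyte maturation, was higher in Ctrl-F by 4.71, Spi1, which encodes PU.1, by 1.98, and Gata1 by 1.72. Gata2 was lower, with a log2 difference of −1.31. The calls were 3 higher and 1 lower in Ctrl-F and in ODNcap-F, and 3 higher and 2 lower in Cap-F, where Zfpm1 also passed at −1.03. The median of the list in Ctrl-F was 0.46. Of the other eosinophil surface and lipid mediator genes, 6 of 11 were called higher in Ctrl-F and 7 of 11 with Cap-F and with ODNcap-F, led by Alox15 at 4.66, C3ar1 at 3.87, Il1rl1 at 2.10, and Adgre1 at 1.76 for Ctrl-F, with a median of 1.48.

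Relatives of the surface members were mixed. Of 6 genes of the Siglec family, 3 were called higher in Ctrl-F, Siglecg by 1.90, Cd22 by 1.83, and Cd33 by 1.24, of which Siglecg and Cd22 are B cell genes. Of 6 relatives of Cd300lf, Cd300lb, Cd300a, and Cd300c2 were called higher in Ctrl-F by 3.59, 1.80, and 1.60, and Cd300e was called lower at −1.65. The median was 0.98 for the Siglec family and 1.25 for the Cd300 family. None of the genes in any of these lists passed in the comparisons among OVA-treated groups.

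**Figure D5:**
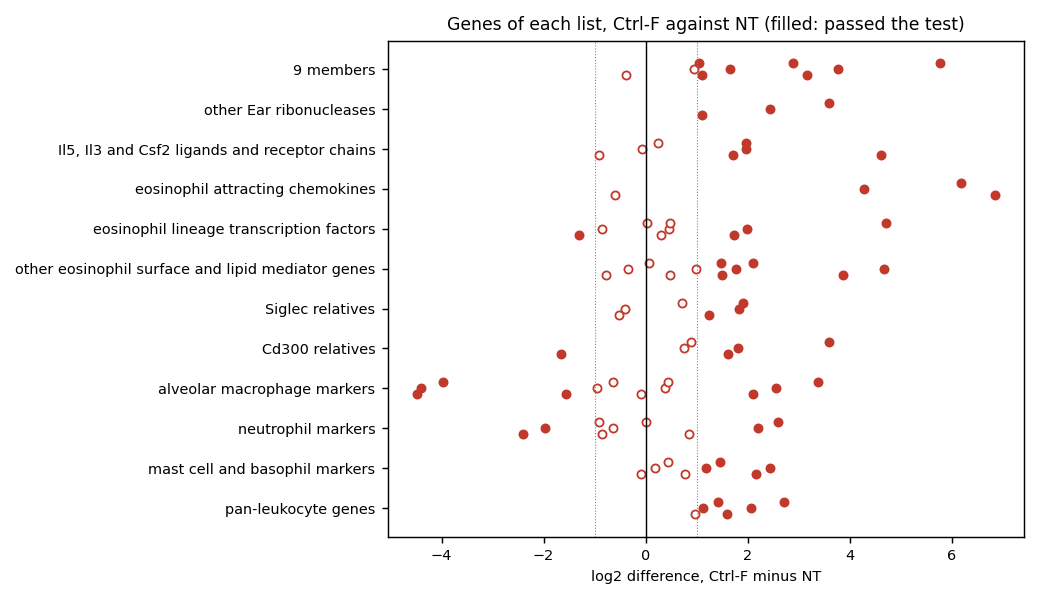
Log2 difference of Ctrl-F from NT (horizontal axis) for the 9 members and for the genes of 11 other lists (rows), 1 point per tested gene. Filled points passed the test and dotted lines mark a 2-fold difference; the eosinophil-attracting chemokines reach 6.85, and the alveolar macrophage markers run from −4.48 to 3.37.

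Markers of other cells that can make these transcripts also moved with OVA. Of 12 alveolar macrophage markers, which matter for Siglecf, Ear1, and Ear2, 3 were called higher and 4 lower in Ctrl-F and in Cap-F, and 3 each way in ODNcap-F, with a median of −0.37 for Ctrl-F. Itgax, Atp6v0d2, and Mrc1 were higher by 3.37, 2.55, and 2.11, whereas Cidec, Fabp1, Marco, and Plet1 differed by −4.48, −4.40, −3.98, and −1.56. The summed linear intensity of the 12 markers was 23584 to 25925 for NT, 48099 to 49733 for Ctrl-F, 43345 to 47238 for Cap-F, and 40137 to 46818 for ODNcap-F, and 11 of the 12 were detected on all arrays, Slc39a2 being the exception on 5. The higher sum was almost wholly that of Itgax, which other leukocytes also express and which read 2514 to 2748 for NT and 26287 to 28166 for Ctrl-F on the linear scale. The other 11 markers summed to 21070 to 23177 for NT, 21567 to 21812 for Ctrl-F, 19314 to 19415 for Cap-F, and 21827 to 22789 for ODNcap-F. Their part in the Siglecf, Ear1, and Ear2 differences was not tested.

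Mast cells and basophils also carry Ccr3. Of 8 of their markers 4 were called higher in Ctrl-F (Mcpt4 by 2.44, Cpa3 by 1.45, Fcer1a by 1.18, and Cd200r3, which was not well above background in NT, at least 2.76-fold), 3 in Cap-F, and 4 in ODNcap-F. Their summed intensity was 593 to 798 for NT, 1185 to 1381 for Ctrl-F, 892 to 1045 for Cap-F, and 1053 to 1519 for ODNcap-F, with Cd200r3 detected on 6 arrays and the other 7 markers on all. Of 9 neutrophil markers 2 were called higher in Ctrl-F (Ltf by 2.59 and Retnlg by 2.21) and 2 lower (Ngp at −2.40 and Camp at −1.97), and their sum was 119744 to 131179 for NT, 87790 to 93384 for Ctrl-F, 104449 to 104842 for Cap-F, and 82867 to 99709 for ODNcap-F. Most of this sum came from the probes of Csf3r and S100a9, which were not called in Ctrl-F, and the other 7 summed to 11300 to 14549 for NT and 21494 to 23146 for Ctrl-F. Among monocyte and interstitial macrophage markers, 4 of 6 were called higher in Ctrl-F, C1qa, C1qc, and C1qb by 2.86, 2.85, and 2.84 and Ccr2 by 1.25. None was called lower, and the lowest difference of the list was −0.63. The sum of this list was not higher, at 81433 to 82041 for NT and 74728 to 81902 for Ctrl-F. Of 7 lymphocyte markers 3 were called higher in Ctrl-F and none lower, among them the B cell genes Cd79a by 2.13 and Ms4a1 by 2.11. The median of this list was 0.60 and its lowest difference −0.29. Genes common to all leukocytes were called higher in 5 of 6 cases in Ctrl-F, and their sum was 28400 to 33792 for NT and 109142 to 118613 for Ctrl-F. Of 7 lung tissue markers none was called higher and Cldn5 was called lower at −1.27. The part of these cells in the differences of the 9 genes was not tested.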

How the data were processed

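RNA from the lungs of 8 mice was hybridized to single-color Agilent arrays, 1 mouse per array. The authors deposited background-subtracted intensity values for each spot from Agilent Feature Extraction 11.0, without normalization between arrays, and a table of log2 values after quantile normalization, used here as an alternative. After removal of control spots, each array had 59305 spots, of which 792 values over the 8 arrays carried that software's outlier flags and were treated as missing. Log2 intensities were averaged per probe and quantile normalized. The 37116 probes that were well above background in both mice of any group were kept. RefSeq names matched 32994 probes (58.3%). A gene with several probes stood as the probe with the highest mean.

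Groups were compared with limma 3.58.1 (R 4.3.3) in 1 fit of all 8 arrays without covariates, with 4 residual degrees of freedom plus 1.96 from moderation. A call required a fold change over 2 and an adjusted p under 0.05. As an alternative, the study's local-pooled-error test was rebuilt (100 bins, 10 degrees of freedom). Both were tested on simulated data. Values over mice are for separate animals. The number of arrays limits the precision.

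The members and all gene lists were chosen with earlier results of these data known. The text describes all 9 members and names up to 4 genes per list, the called ones with the largest change in Ctrl-F against NT, or those with the smallest p where fewer were called; Ccl5, Mpo, Lpo, Zfpm1, and the lung markers Sftpc and Scgb1a1 were named beside them. The alveolar macrophage list, with all 7 called genes named, went past this limit, and Slc39a2, Csf3r, and S100a9 were named after their values were seen. The 3 genes closest in profile were named for Il5ra and Siglecf, and left out for Epx and Prg2. Alternatives were 75th percentile scaling, normexp with an offset of 50, the deposited table, other filters, an intensity trend, a replicate block, fits of only the groups compared, other thresholds, the mean of a gene's probes, and each array left out. The dimmest probe of a gene was added after the data had been seen. Promoters are from the RefSeq table of GRCm38.p6. Rnase2b and Ccr1 did not pass the filter, Ear14, Ly6g, and Tpsab1 were not analysed here, and some listed genes are not reported here.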

Additional observations from a re-analysis of the deposited data

How the results depend on the processing

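The number of members called against NT stayed within 1.5 times under every alternative run, from 5 to 9. It was 5 of 7 in each comparison with the deposited table or with probes detected on all arrays, which do not hold the Epx and Prg3 probes. With normexp it was 6. Calls over all 28992 genes, in either direction, then fell from 6603 to 3552 (Ctrl-F), 5685 to 3048 (Cap-F), and 5999 to 3146 (ODNcap-F). The number was 8 or 9 with the dimmest probe of a gene. With 1 mouse left out it was 5 to 7 (Ctrl-F), 6 to 7 (Cap-F), and 5 to 8 (ODNcap-F). For the deposited table, the filter, and the fits with 1 mouse left out, counts over all genes are not given here. Among OVA-treated groups the number of members called was 0 under all alternatives. Deviations of same-numbered mice from their group means correlated weakly over the kept probes (r from −0.012 to 0.16, highest between Cap-F and ODNcap-F). A weak correlation cannot exclude that the numbers pair mice. With the replicate number as a block, 7 members were called against NT in each group, as without it. With normexp, and with the feeds in the order used above, the differences from NT were 3.17, 3.05, and 2.83 for Prg2, 2.56, 2.49, and 2.57 for Il5ra, and 2.21, 2.67, and 2.32 for Ccr3, over 1.5 times smaller as folds, and all passed. Fitting only the groups compared ended the Prg3 call in Cap-F (adjusted p of 0.0506).

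Some differences changed sign. With the mean of a gene's probes, Cd300lf was 0.73 (Ctrl-F) and 0.78 (ODNcap-F) above NT, and with the dimmest probe 1.85 and 1.78. Cd300lf in Cap-F against NT was −0.0051 with normexp and ran from −0.042 to 0.10 with 1 mouse left out. The other sign changes were among OVA-treated groups and in no case passed the test. With the mean of probes, ODNcap-F against Ctrl-F was −0.42 for Prg3 and −0.011 for Il5ra, ODNcap-F against Cap-F −0.036 for Il5ra, Cap-F against Ctrl-F 0.024 for Il5ra, and ODNcap-F against both controls −0.088 for Prg3 and −0.024 for Il5ra. With the dimmest probe these were −1.09, −0.058, −0.17, 0.11, −0.49, and −0.11, and Cd300lf in ODNcap-F against Ctrl-F was −0.072. The Prg3 values in both sets rest on a probe not well above background in ODNcap-F and Cap-F, and give no size. Leaving out 1 mouse, ODNcap-F against Ctrl-F ran from −0.16 to 0.29 for Ear1, −0.097 to 0.28 for Ear2, −0.34 to 0.18 for Siglecf, and −0.023 to 0.30 for Ccr3. ODNcap-F against Cap-F ran from −0.045 to 0.40 for Ear1, −0.057 to 0.32 for Ear2, −0.47 to 0.053 for Siglecf, −0.41 to 0.013 for Prg2, and −0.44 to 0.021 for Epx. Cap-F against Ctrl-F ran from −0.16 to 0.082 for Ear2, −0.28 to 0.041 for Prg2, −0.30 to 0.034 for Epx, and −0.39 to 0.13 for Prg3. ODNcap-F against both controls ran from −0.10 to 0.34 for Ear1, −0.077 to 0.30 for Ear2, −0.155 to 0.054 for Cd300lf, −0.41 to 0.12 for Siglecf, and −0.27 to 0.050 for Ccr3. Apart from the choice of probe, the cause was not tested.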
